A study of Mus musculus with 55 samples.

Results

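Fatty acid oxidation was followed through 33 genes in RNA sequencing of 3 mouse fat depots, the interscapular brown fat (iBAT), the gonadal white fat (goWAT) and the subcutaneous white fat (scWAT). The genes were chosen by name, as the carnitine shuttle, acyl-CoA synthetases and thioesterases, the enzymes of the mitochondrial spiral, the electron transfer proteins and the peroxisomal branch, with earlier results of these data known. All 33 were found among the 31933 genes of the count tables. A filter on low counts left 33 of them for testing in iBAT, 33 in scWAT and 32 in goWAT, where Cpt1b did not pass.

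The animals were male C57BL/6NRj mice of 10 weeks, and no genetic modification is named. For 4 weeks they drank either corticosterone, the main glucocorticoid of the mouse, or placebo, and lived at 22 °C or at 13 °C. Areas of frozen sections were cut out by laser capture, and about 2 ng of RNA per sample was amplified with SMARTSeq2, a whole-transcript protocol that does not mark the strand. How areas were chosen is not given in the sources used here. The 55 libraries comprised, in the order placebo at 22 °C, corticosterone at 22 °C, placebo at 13 °C and corticosterone at 13 °C, 3, 5, 5 and 5 of iBAT, 4, 5, 5 and 5 of goWAT, and 4, 5, 5 and 4 of scWAT. Nothing in the labels says which libraries come from the same animal. What the p-values take into account is the spread among these libraries, which may be technical in part. Comparisons of depots treat as separate any libraries that share an animal, so that their p-values may be too large or too small. In bulk samples such as these, fewer cells of a type and less RNA per cell cannot be told apart.

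Long-chain fatty acids are first joined to coenzyme A by acyl-CoA synthetases, passed onto carnitine by carnitine palmitoyltransferase 1 at the outer mitochondrial membrane, carried across the inner membrane and returned to coenzyme A. Each turn of the spiral then removes a short unit in steps of dehydrogenation, hydration, a further dehydrogenation and thiolysis, and the electrons of the first step leave through the electron transfer flavoprotein. Peroxisomes shorten very long and branched chains with their own enzymes. Brown fat burns fatty acids for heat, whereas white adipocytes mainly store and release them and oxidise comparatively little.

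Library totals ran from 14043773 to 35790654 counts in iBAT, from 12310822 to 53121372 in goWAT and from 8622178 to 56450653 in scWAT. Brown adipocyte markers were higher in iBAT than in the white depots. The sum of 10 brown adipocyte markers, Ucp1 and Cidea among them, was 5743 to 36536 CPM (counts scaled to the library's size) in placebo iBAT at 22 °C, 933 to 3626 CPM in scWAT and 212 to 297 CPM in goWAT. Adipoq, a marker of adipocytes, was at 3808 to 5049.7 CPM in those scWAT libraries, 2936 to 4347 CPM in goWAT and 631 to 4365 CPM in iBAT. It does not tell the depots apart. Several libraries held far more RNA of another cell type than the rest of their group, and counts or medians that change without them are given beside the result. In scWAT, macrophage markers set apart corticosterone libraries 2 and 3 at 22 °C, keratins 1 placebo and 3 corticosterone libraries at 13 °C, and brown fat markers placebo libraries 2 and 4 at 22 °C and 4 at 13 °C. Corticosterone library 2 at 22 °C also held skeletal muscle markers at 2805 CPM. In goWAT brown fat markers set apart corticosterone library 1 at each temperature, and markers of the epididymis summed to 1414 CPM in corticosterone library 5 at 22 °C and to 514 and 3562 CPM in placebo libraries 1 and 4 at 13 °C. In iBAT macrophage markers were highest in placebo library 1 (533 CPM) and corticosterone library 5 (4726 CPM) at 22 °C. Muscle markers there were highest in placebo library 3 at 22 °C (369 CPM) and in placebo library 4 (411 CPM) and corticosterone library 4 (1014 CPM) at 13 °C. White adipocyte markers summed to 29253 and 17421 CPM in iBAT placebo libraries 1 and 2 at 22 °C and to 3536 CPM in library 3. In the other iBAT groups they summed to 2068 to 9104 CPM.

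Across 12 comparisons between groups within a depot, 20 of the 33 members changed in at least 1, and 7 of the 12 comparisons had no member past the threshold, an adjusted p of 0.05 (edgeR quasi-likelihood test, Benjamini-Hochberg adjustment over all genes of the depot). Most calls were in scWAT. The 13 members without a call in any were Acadm and Acadvl among the acyl-CoA dehydrogenases, Acsl5 and Acot2, the thiolases Acaa1a and Acaa2, Eci2, Etfa, Etfdh, Hadh, Hsd17b4, Hsd17b10 and Mlycd. Acsl1, which joins long-chain fatty acids to coenzyme A, and Hadha, the alpha subunit of the mitochondrial trifunctional protein, were called in 3 comparisons each.

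**Figure D1:**
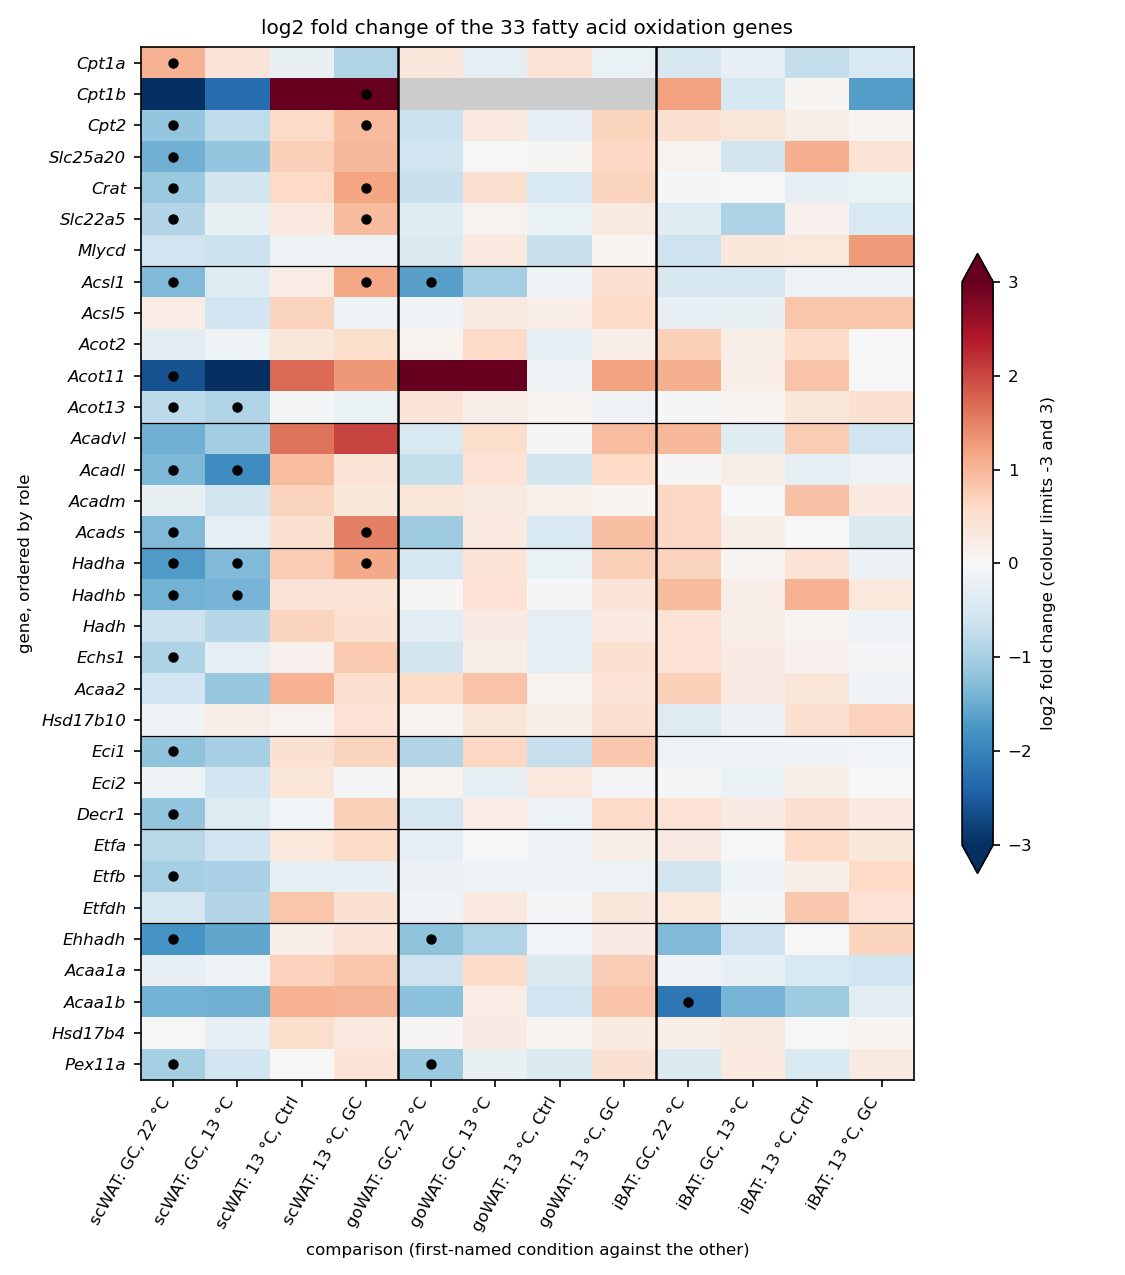
Log2 fold change of each of the 33 genes (rows, grouped by role) in 12 comparisons (columns: scWAT, goWAT and iBAT, each with corticosterone against placebo at 22 °C and 13 °C, then 13 °C against 22 °C in placebo and in corticosterone), with dots for an adjusted p under 0.05 and grey where Cpt1b was not tested. In the first scWAT column 31 of 33 genes were negative, and 18 carry a dot.

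Corticosterone at 22 °C lowered much of the set in subcutaneous fat. Of the 33 members, 17 fell and 1 rose, against 3.45% of all 19003 genes tested that fell and 3.48% that rose (6.93% called in all). The median log2 fold change was -1.002 over the members, with 31 of 33 negative, and 0.06 over all genes tested. Groups did not overlap for 11 of 33 members, as for 8.49% of all genes. In each role at least 1 member fell: 4 of 7 in the carnitine shuttle, 3 of 5 synthetases and thioesterases, 2 of 4 acyl-CoA dehydrogenases, 3 of 6 enzymes of hydration to thiolysis, 2 of 3 enzymes for unsaturated chains, 1 of 3 electron transfer proteins and 2 of 5 peroxisomal members.

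The smallest p-value belonged to Hadha, which with Hadhb forms the trifunctional protein of the inner mitochondrial membrane that carries out the last steps of the spiral on long chains. Hadha read 371, 506, 404 and 629 CPM in the 4 placebo libraries and 160.1, 139, 120.0, 173 and 147 CPM in the 5 corticosterone libraries. The means were 148 ± 20.3 against 478 ± 116 CPM (SD), for a log2 fold change of -1.69 ± 0.27 (SE), adjusted p = 0.000585. Every corticosterone library was below every placebo library. Hadhb, the beta subunit with the thiolase activity, read 231, 414, 189 and 401 CPM with placebo and 103, 98.9, 112, 160.3 and 103 CPM with corticosterone (log2 fold change -1.42 ± 0.29 (SE), adjusted p = 0.00489). Its groups did not overlap either. Echs1, the short-chain enoyl-CoA hydratase, was at 345 against 659 CPM (-0.93 ± 0.26 (SE), adjusted p = 0.0289).

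Hadha (chr5:30118304-30155162, minus strand) and Hadhb (chr5:30155248-30184593, plus strand) lie head to head on chromosome 5 of mm10, and 85 bases separate the 2 genes in GENCODE release M21. That stretch is shown because both genes moved together and read away from it in opposite directions. It is given 5′ to 3′ on the plus strand, with no base marked, from RefSeq's 300-base start windows of the same assembly (GRCm38.p6), at chr5:30155163-30155247. The Hadha and Hadhb windows share 228 bases.
Hadha and Hadhb: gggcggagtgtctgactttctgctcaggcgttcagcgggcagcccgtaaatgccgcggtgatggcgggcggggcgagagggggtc

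Among the acyl-CoA dehydrogenases, which take the first step of each turn for a given chain length, Acadl (long chains) read 530.3, 1076, 662 and 847 CPM with placebo and 446, 232, 267, 362 and 235 CPM with corticosterone (-1.34 ± 0.31 (SE), adjusted p = 0.0109). No library of one group reached the other. Acads (short chains) read 102, 162, 176 and 227 CPM against 113, 46.5, 33.6, 71.6 and 67.6 CPM (-1.33 ± 0.31 (SE), adjusted p = 0.0109). Corticosterone library 1 lay within the placebo range for Acads and the other 4 lay below it. Acadm was at 486 against 570.1 CPM (adjusted p = 0.707) and Acadvl at 50.1 against 137 CPM (adjusted p = 0.313), and neither passed.

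Acsl1 read 2533, 2663, 3119.8 and 4408 CPM with placebo and 1938, 922, 867, 1549 and 1078 CPM with corticosterone (-1.32 ± 0.29 (SE), adjusted p = 0.00763), again without overlap. Thioesterases release fatty acids from coenzyme A. Acot13 was at 63.6 against 109 CPM (-0.78 ± 0.22 (SE), adjusted p = 0.0396) and Acot11, known from thermogenic fat, at 2.49 against 15.2 CPM (-2.62 ± 0.75 (SE), adjusted p = 0.0431). Decr1, the dienoyl-CoA reductase needed for polyunsaturated chains, read 397, 549, 467 and 735 CPM against 282, 184, 191, 321 and 201 CPM (-1.19 ± 0.25 (SE), adjusted p = 0.00517). Eci1, which shifts double bonds so that unsaturated chains can enter the spiral, read 407, 740.0, 449 and 512 CPM against 358, 205, 134, 245 and 191 CPM (-1.22 ± 0.28 (SE), adjusted p = 0.00991). For both genes the highest corticosterone library stayed below the lowest placebo library.

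**Figure D2:**
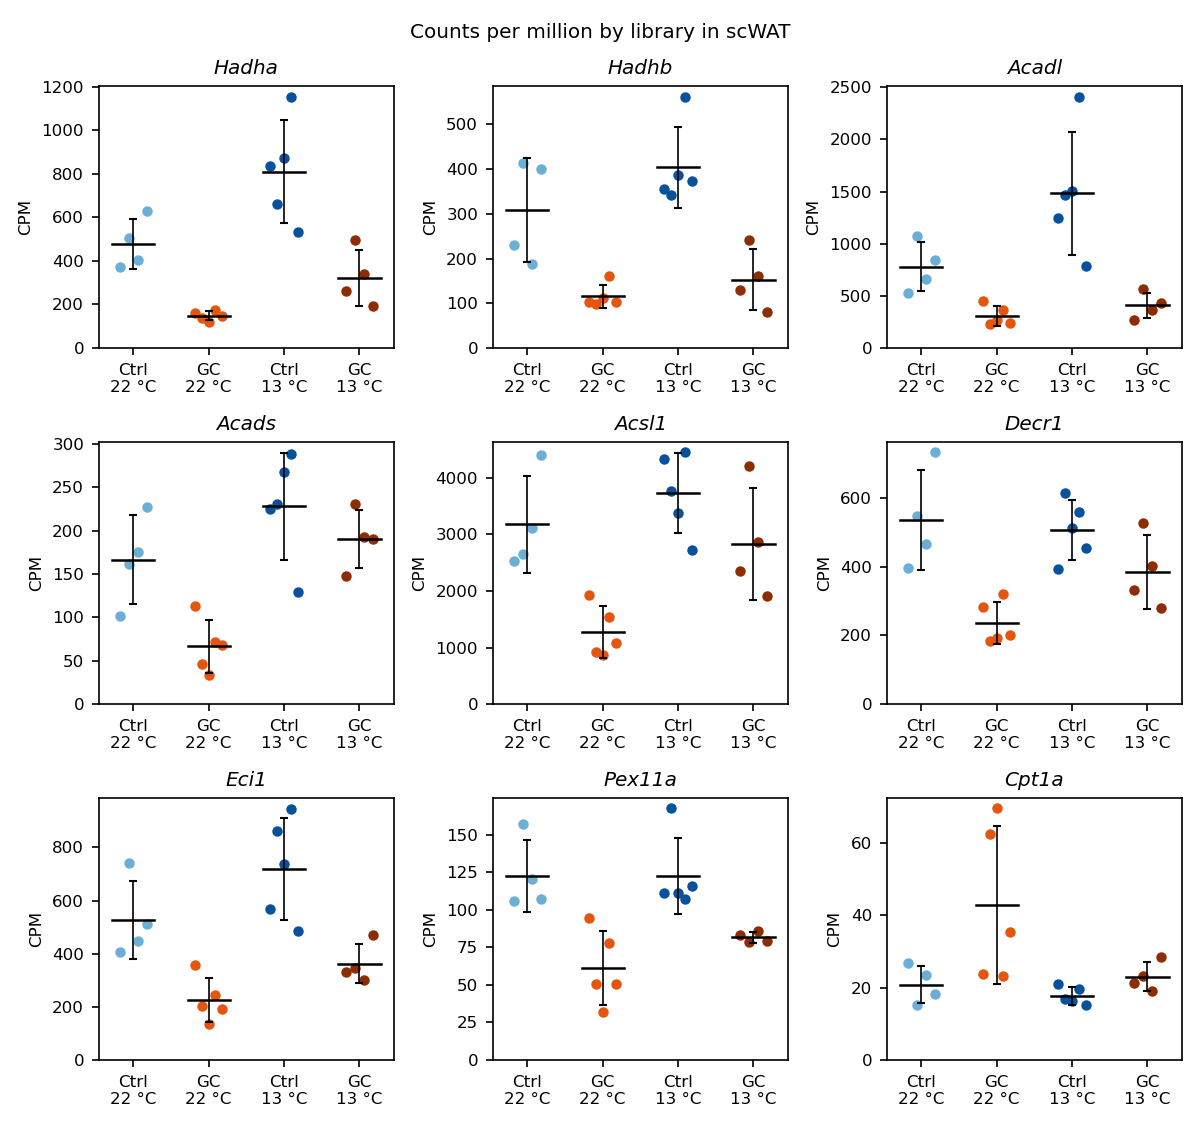
CPM of Hadha, Hadhb, Acadl, Acads, Acsl1, Decr1, Eci1, Pex11a and Cpt1a in each scWAT library (points) of the 4 groups, with the mean as a line and the SD as a bar. Hadha is at 120.0 to 173 CPM in the corticosterone libraries at 22 °C and at 371 to 629 CPM in the placebo libraries.

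In the carnitine shuttle, Slc25a20, the carrier that exchanges acylcarnitine for carnitine across the inner membrane, was at 74.5 against 202 CPM (-1.44 ± 0.33 (SE), adjusted p = 0.0114). Cpt2, which returns the acyl group to coenzyme A inside the mitochondrion, was at 132 against 294 CPM (-1.15 ± 0.28 (SE), adjusted p = 0.0156), with overlapping groups. Crat, the acetyltransferase for short acyl groups, was at 201 against 438 CPM (-1.12 ± 0.26 (SE), adjusted p = 0.0111), and Slc22a5, the carnitine importer of the cell surface, at 15.8 against 28.8 CPM (-0.87 ± 0.25 (SE), adjusted p = 0.0396). These 4 fell while Cpt1a, the liver-type transferase that gates entry, was the only member that rose. Cpt1a read 26.8, 15.2, 23.4 and 18.1 CPM with placebo and 23.9, 62.5, 69.8, 23.3 and 35.3 CPM with corticosterone (1.04 ± 0.30 (SE), adjusted p = 0.0390). Libraries 2 and 3 of the corticosterone group, those rich in macrophage markers, were its 2 highest, and libraries 1 and 4 lay within the placebo range. Without libraries 2 and 3 its log2 fold change was 0.40, adjusted p = 0.458.

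Cpt1a (chr19:3322334-3385733 in mm10, plus strand) is shown with the first 234 bases of its RefSeq start window (GRCm38.p6, chr19:3323051-3323284, plus strand, 5′ to 3′, no base marked), as the only member that moved against the rest. They end where the first exon of its main transcript begins in GENCODE M21, and lie in the first intron of a longer transcript that sets the gene start given here. The CCAAT box of the window crosses that end and is not shown in full.
Cpt1a: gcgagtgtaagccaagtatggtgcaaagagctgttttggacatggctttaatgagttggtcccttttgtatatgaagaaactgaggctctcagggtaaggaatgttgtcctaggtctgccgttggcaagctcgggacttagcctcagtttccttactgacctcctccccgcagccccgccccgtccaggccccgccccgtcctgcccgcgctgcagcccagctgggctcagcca

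Peroxisomal and electron transfer members took part as well. Pex11a, a membrane protein of peroxisome division, read 106, 157, 121 and 107 CPM with placebo and 94.6, 50.7, 32.2, 78.1 and 50.8 CPM with corticosterone (-1.002 ± 0.25 (SE), adjusted p = 0.0176), without overlap. Ehhadh, the peroxisomal bifunctional enzyme, was at 30.7 against 105 CPM (-1.78 ± 0.45 (SE), adjusted p = 0.0189), with 1 corticosterone library just inside the placebo range. Etfb, a subunit of the electron transfer flavoprotein, was at 197 against 395 CPM (-1.002 ± 0.27 (SE), adjusted p = 0.0270). Of the 50-base stretches of the exons, 44.8% in Etfb, 26.3% in Slc22a5, 19.7% in Hadhb and 17.3% in Acot11 also occur in an overlapping or near-identical gene, and their counts are uncertain to that extent.

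Markers of other cell types moved with this comparison. Of 10 brown adipocyte markers 8 fell, all 10 were negative, and their sum was 933 to 3626 CPM with placebo and 141 to 342 CPM with corticosterone. Ucp1, the uncoupling protein of brown and beige adipocytes, had a log2 fold change of -4.12, adjusted p = 0.0197. Of 12 macrophage markers 2 rose (Csf1r and Lyz2) and all were positive, with a sum of 631 to 1473 CPM against 801 to 11361 CPM. The 9 white adipocyte markers had a median log2 fold change of -0.00, with Lep, Nnat and Npr3 up and Cfd down. The sum of the 9 white markers was 36873 to 46598 CPM with placebo and 12366 to 22745 CPM with corticosterone, without overlap. The mean of their log2 levels went the other way, at 9.06 to 9.64 with placebo and 9.66 to 10.48 with corticosterone. None of the brown, macrophage or white markers tested was at 0 in all libraries of either group. Without the macrophage-rich corticosterone libraries 2 and 3, 2 members fell, Hadha (-1.58, adjusted p = 0.00859) and Hadhb (-1.34, adjusted p = 0.0419), and the median was -0.73, while the calls over all genes went from 1317 to 738. Without the brown-marker-rich placebo libraries 2 and 4 at 22 °C and 4 at 13 °C, Hadha alone fell (-1.38, adjusted p = 0.0430), the median was -0.78, and 206 genes of all were called. The part of these cell types in the result was not tested beyond that.

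**Figure D3:**
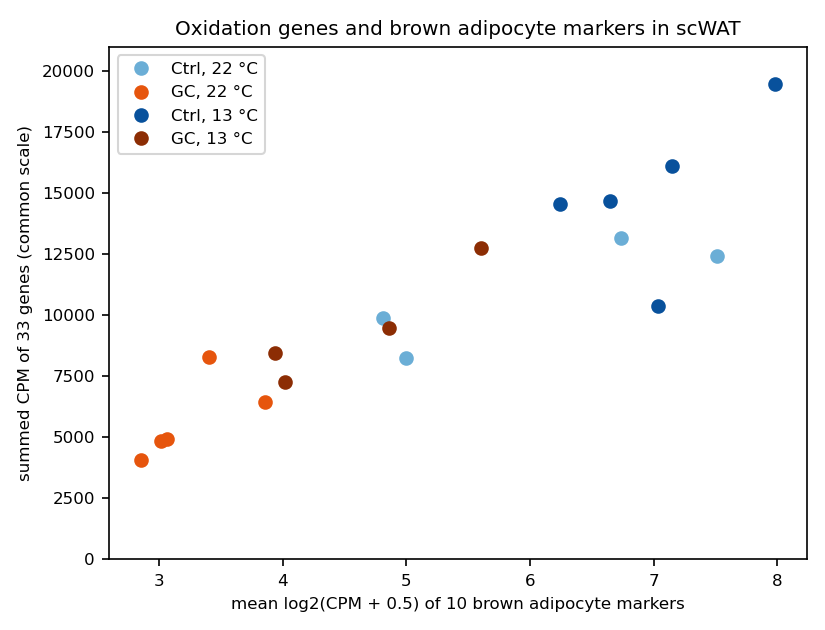
Summed level of the 33 genes in CPM (vertical axis) against the mean log2(CPM + 0.5) of 10 brown adipocyte markers (horizontal axis) in the scWAT libraries, coloured by group. Corticosterone libraries at 22 °C lie at 2.85 to 3.86 on the horizontal axis and placebo libraries at 13 °C at 6.24 to 7.98.

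With 1 library left out at a time the number of members called ranged from 6, without placebo library 2, to 20, without corticosterone library 1. It was 9 without placebo library 4 and 11 without corticosterone library 2 or 3. The calls over all genes in these fits are not given here. The counts therefore cannot tell a change in the members from a change in calls of genes in general. Hadha, Hadhb, Acsl1, Crat and Decr1 kept their call in all 9 such fits, and Acadl, Acads, Eci1 and Pex11a in 8. Acot11, Acot13 and Slc22a5 kept it in 3, and Cpt1a, Echs1 and Etfb in 4.

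At 13 °C corticosterone lowered 4 of 33 members in subcutaneous fat, Acadl, Hadha, Hadhb and Acot13, and raised 0, against 1.14% and 1.45% of all genes. All 4 were among the 17 that fell at 22 °C. The median over the members was -0.64, with 31 of 33 negative and 18 at an unadjusted p under 0.05, and 0.01 over all genes. Groups did not overlap for 8 members and for 8.53% of all genes.

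Acadl read 1249, 1466, 1509.9, 2403 and 784 CPM with placebo and 272, 563, 365 and 435 CPM with corticosterone, the latter for libraries 1, 3, 4 and 5 (-1.86 ± 0.33 (SE), adjusted p = 0.00251). Hadha read 834, 659, 873, 1151 and 531 CPM against 262, 495, 340.4 and 193 CPM (-1.33 ± 0.28 (SE), adjusted p = 0.0105), and Hadhb 356, 341, 388, 562 and 372 CPM against 129, 241, 162 and 79.9 CPM (-1.40 ± 0.30 (SE), adjusted p = 0.0134). For these 3 genes every corticosterone library was below every placebo library. Acot13 was at 55.8 against 105 CPM (-0.91 ± 0.23 (SE), adjusted p = 0.0338), also without overlap. Just outside the threshold were Acot11 (-3.02, adjusted p = 0.0521), Etfb (-0.98, adjusted p = 0.0615), Eci1 (-0.99, adjusted p = 0.0641) and the mitochondrial thiolase Acaa2 (-1.13, adjusted p = 0.0641).

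Brown adipocyte markers summed to 1367 to 4249 CPM with placebo and 325 to 859.6 CPM with corticosterone, and 4 of 10 fell. Epithelial markers, keratins among them, reached 361 CPM in the corticosterone group, and 0 of 7 passed. Without the 4 keratin-rich libraries, which leaves a lone corticosterone library assumed to vary like the other groups, no member was called and the calls over all genes went from 493 to 36. Without the brown-marker-rich libraries 2 fell, Acadl (-1.61, adjusted p = 0.0142) and Hadhb (-1.24, adjusted p = 0.0451). Their part in the result was not tested beyond these values. Leaving out 1 library gave 2 calls without corticosterone library 5 and up to 6 without placebo library 5. Acadl and Hadha kept their call in all 9 of these fits, Hadhb in 8 and Acot13 in 2.

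The corticosterone effect was not shown to differ between the temperatures. The interaction had 0 calls among the members and 0 among 19003 genes (0%), with 3 members at an unadjusted p under 0.05, and DESeq2 and limma called no member either. The smallest p-values belonged to Acads (1.07, adjusted p = 0.431), Acsl1 (0.93, adjusted p = 0.480), Decr1 (0.79, adjusted p = 0.480) and Acsl5 (-0.81, adjusted p = 0.571). The median over the members was 0.18, and it was -0.01 without the macrophage-rich libraries and -0.11 without the brown-marker-rich libraries.

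Housing at 13 °C was compared with 22 °C within each treatment. With placebo no member passed in scWAT, as no gene of 19003 did (0%). Of the 33 members 27 were positive, 13 had an unadjusted p under 0.05, and the median log2 fold change was 0.45 (-0.01 over all genes). limma with library weights called 1 member and DESeq2 none. Acaa2 was at 722 against 349 CPM (1.05 ± 0.32 (SE), adjusted p = 0.265), Acadl at 1482 against 779 CPM (adjusted p = 0.278) and Hadha at 809.7 against 478 CPM (adjusted p = 0.300). For every member the ranges of the 2 groups overlapped, while 4.92% of all genes did not overlap. Acsl1 read 4331, 3761, 3380.4, 4454 and 2732 CPM and Decr1 392, 614, 513, 561 and 453 CPM in the placebo libraries at 13 °C. Eci1 read 567, 860.2, 737, 945 and 484 CPM, Acads 224, 230.2, 268, 289 and 129 CPM and Pex11a 111, 168, 111, 107 and 116 CPM there.

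Under corticosterone 7 of 33 members rose at 13 °C against 22 °C and 0 fell, against 3.02% and 5.17% of all genes (8.18% in all). The median was 0.53, with 27 of 33 positive, and -0.00 over all genes. Of the 7, 6 were genes that corticosterone had lowered at 22 °C, and the exception was Cpt1b. Both comparisons use the corticosterone libraries at 22 °C. The shuttle held 4 of the 7 calls. Groups did not overlap for 4 of 33 members and for 8.67% of all genes.

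Acads read 148, 230.4, 193 and 190.0 CPM at 13 °C under corticosterone, all above the 22 °C libraries (1.52 ± 0.31 (SE), adjusted p = 0.0144). Hadha, with the values given above, had a log2 fold change of 1.13 ± 0.27 (SE), adjusted p = 0.0196 and no overlap. Acsl1 read 2350.2, 4206, 2874 and 1919 CPM (1.16 ± 0.29 (SE), adjusted p = 0.0227), with library 5 just below the highest 22 °C library. In the shuttle, Crat was at 458 against 201 CPM (1.19, adjusted p = 0.0145), Slc22a5 at 30.2 against 15.8 CPM (0.94, adjusted p = 0.0291) and Cpt2 at 257 against 132 CPM (0.96, adjusted p = 0.0407). Members without a call included Decr1, at 331, 528, 401 and 280.2 CPM, Eci1, at 331, 346, 301 and 469 CPM, and Pex11a, at 83.4, 78.2, 85.9 and 79.1 CPM. Cpt1a read 20.9, 16.9, 16.2, 19.5 and 15.1 CPM with placebo and 21.4, 23.3, 19.2 and 28.5 CPM with corticosterone at 13 °C, and its difference from 22 °C under corticosterone did not pass (-0.89, adjusted p = 0.0649).

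Cpt1b, the muscle-type transferase, was near the limit of detection in scWAT. Its CPM were 0.0512, 0.363, 0.128 and 0.905 with placebo and 0.0234, 0.0188, 0.116, 0 and 0 with corticosterone at 22 °C. At 13 °C they were 3.24, 1.30, 4.19, 9.75 and 0.116 with placebo and 0.0487, 2.10, 0.801 and 0.104 with corticosterone. It passed for 13 °C under corticosterone (adjusted p = 0.0314), but with 0 to 4 counts in each corticosterone library at 22 °C the fitted fold depends on the prior count and is not given. In GENCODE M21, 2744 of its 3372 exon bases are shared with the read-through gene Gm44502, which has no row in the tables, so the 4893 counts of Cpt1b over all libraries cannot be read as its full level.

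Macrophage markers fell in 11 of 12 cases in this comparison, from 801 to 11361 CPM at 22 °C to 549 to 703 CPM at 13 °C, and all 7 epithelial markers rose, from 0.276 to 2.59 CPM to 0.146 to 361 CPM. Of 10 brown adipocyte markers 2 rose, Cox8b and Otop1, and no marker of the 3 lists was at 0 in all libraries of either group. Their part in the result was not tested beyond the values that follow. Without the macrophage-rich libraries no member and 2 genes of all were called, and without the keratin-rich libraries no member and 4 genes. Leaving out corticosterone library 3 at 13 °C gave 0 members and leaving out library 4 gave 2. Without corticosterone library 3 at 22 °C there were 3, without library 2 4, and without library 1 16. For these fits without 1 library the calls over all genes are not given here.

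In gonadal fat corticosterone at 22 °C lowered 3 of 32 members, the synthetase Acsl1 and the peroxisomal members Pex11a and Ehhadh, and raised 0, against 2.85% and 3.13% of all 20175 genes (5.98% in all). All 3 had also fallen in scWAT. The median was -0.39 over the members, with 22 of 32 negative, and 0.05 over all genes. Acsl1 read 2609, 1918, 4345 and 2563 CPM with placebo and 1549, 872, 989, 727 and 521 CPM with corticosterone (-1.62 ± 0.33 (SE), adjusted p = 0.00416). Pex11a read 119, 143, 103 and 135 CPM against 60.3, 50.1, 78.1, 45.7 and 55.8 CPM (-1.11 ± 0.23 (SE), adjusted p = 0.00590). Neither gene's groups overlapped. Ehhadh read 41.8, 74.0, 69.8 and 53.0 CPM against 25.9, 24.8, 16.6, 33.5 and 28.1 CPM (-1.21 ± 0.32 (SE), adjusted p = 0.0245), again apart. Groups did not overlap for 3 of 32 members, near the 8.32% of all genes. Eci1, just outside the threshold, read 423, 437, 255 and 664 CPM against 337, 227, 217, 212 and 212 CPM (-0.88 ± 0.27 (SE), adjusted p = 0.0544).

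Other members had 1 corticosterone library above the rest. Hadha read 293, 295, 346 and 303 CPM with placebo and 539, 162, 149, 127 and 118 CPM with corticosterone, Hadhb 119.6, 112, 110.0 and 92.9 CPM against 244, 53.9, 64.1, 104 and 86.6 CPM, and Acadl 412, 426, 472 and 651 CPM against 574, 193, 393, 155 and 190.0 CPM. In each the first corticosterone library was the highest of its group and none passed. That library's brown markers summed to 1674 CPM, against 212 to 297 CPM in the placebo libraries, although 0 of 10 brown markers passed in the comparison. Without it and its counterpart at 13 °C, 13 members fell, the median was -0.53, and the calls over all genes went from 1206 to 2113. In the fits without 1 library Acsl1 and Pex11a kept their call in 9 of 9 and Ehhadh in 6, and the count ran from 2 to 7, the highest without corticosterone library 1. Without the 3 libraries holding epididymal transcripts the same 3 members fell and the median was -0.28.

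Acads read 177, 171, 149.7 and 232 CPM with placebo and 189.6, 66.8, 86.5, 38.1 and 53.2 CPM with corticosterone, and Decr1 351, 300.1, 289 and 254 CPM against 347, 166, 220.2, 129.7 and 197 CPM. Cpt1a read 27.3, 23.1, 38.5 and 18.9 CPM against 21.6, 36.1, 38.4, 44.4 and 30.6 CPM (0.35, adjusted p = 0.485). The Cpt1a groups overlapped. Cpt1b was at 0.119, 0.148, 0.131 and 0 CPM and 3.52, 0, 0.152, 0 and 0 CPM at 22 °C, and at 0.131, 0.402, 0.222, 0.1001 and 0.166 CPM and 8.36, 0.0352, 0.0188, 0.110 and 0.0243 CPM at 13 °C, in the same order of treatments.

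At 13 °C corticosterone changed no member in goWAT (0 of 32, against 1.45% of all genes, 0.848% higher and 0.600% lower), with 5 at an unadjusted p under 0.05. DESeq2 called 1 and limma 2. Acsl1 read 1759.8, 3833, 2493, 2220.1 and 2679.6 CPM with placebo and 2007, 907, 1122, 1473 and 1018 CPM with corticosterone (-0.99 ± 0.31 (SE), adjusted p = 0.103). Its ranges overlapped through corticosterone library 1. The next smallest p-values belonged to Ehhadh (-0.89, adjusted p = 0.135), Acot11 (adjusted p = 0.183) and Eci1 (0.62, adjusted p = 0.235), whose CPM were 233, 334, 305, 209.9 and 283 against 521, 229, 518, 466 and 365. The median over members was 0.27, and -0.04 without the brown-marker-rich libraries, when Acsl1 (-1.22, adjusted p = 0.0304) and Ehhadh (-1.18, adjusted p = 0.0436) fell. Without the libraries holding epididymal transcripts it was 0.14 and no member was called.

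For the remaining members given by library, Hadha at 13 °C read 242, 436, 239.8, 221 and 219 CPM with placebo and 1034, 194, 160.0, 235 and 167 CPM with corticosterone in goWAT. Hadhb read 89.6, 174, 90.7, 67.2 and 109.5 CPM against 405, 101, 59.9, 81.0 and 72.6 CPM, and Acadl 276, 451, 320.0, 250.4 and 386 CPM against 1032, 284, 305, 408 and 256 CPM. Corticosterone library 1, whose brown markers summed to 2498 CPM, was the highest in all 3 genes. Acads read 86.4, 179, 116, 168 and 112 CPM against 316, 72.3, 126, 165 and 128 CPM, and Decr1 243, 409, 220.0, 242 and 225 CPM against 560.0, 233, 234, 286 and 258 CPM. Pex11a read 103, 148, 72.8, 62.4 and 84.5 CPM against 96.3, 66.5, 68.4, 91.2 and 78.3 CPM, and Cpt1a 47.1, 30.2, 23.6, 35.0 and 44.4 CPM against 15.7, 32.0, 32.2, 30.3 and 38.4 CPM. In these 4 genes the groups overlapped.

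Cold housing changed no member in goWAT either. With placebo 0 of 32 passed, against 0.312% of all genes (0.0198% higher and 0.292% lower), with 2 at an unadjusted p under 0.05, and neither DESeq2 nor limma called any. The smallest p-values were for Mlycd, malonyl-CoA decarboxylase (-0.67, adjusted p = 0.526), Eci1 (-0.70, adjusted p = 0.554), Pex11a (-0.41, adjusted p = 0.806) and Cpt1a (0.42, adjusted p = 0.887). The median over the members was -0.14, and 0.00 without the libraries holding epididymal transcripts. Under corticosterone 0 of 32 passed, against 0.0149% of all genes (0.00496% higher and 0.00991% lower), with 5 at an unadjusted p under 0.05 and none by DESeq2 or limma. Eci1 (0.80, adjusted p = 0.183), Acaa1a (0.73, adjusted p = 0.279), Acsl5 (0.57, adjusted p = 0.282) and Acads (0.90, adjusted p = 0.285) came first. The interaction of treatment and temperature passed for 0 of 32, against 0.461% of all genes, with 9 at an unadjusted p under 0.05, while DESeq2 and limma called 1 each. Eci1 was nearest (1.503 ± 0.37 (SE), adjusted p = 0.0803), followed by Pex11a (0.87, adjusted p = 0.246), Acaa1a (1.17, adjusted p = 0.256) and Acads (1.36, adjusted p = 0.287).

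In brown fat corticosterone at 22 °C lowered 1 of 33 members and raised 0, against 0.332% and 0.332% of all 17163 genes (0.664% in all). The gene was Acaa1b, a peroxisomal thiolase, which read 77.2, 82.3 and 151 CPM in the 3 placebo libraries and 18.8, 33.3, 31.6, 13.5 and 20.7 CPM in the 5 corticosterone libraries (-2.13 ± 0.42 (SE), adjusted p = 0.0164). No corticosterone library reached the placebo range. Groups did not overlap for 3 of 33 members, near the 7.57% of all genes. Of its 50-base stretches 39.6% occur in another gene, mostly its paralog Acaa1a, so the 2 thiolases are hard to separate. The call was lost without corticosterone library 1 or placebo library 3, with an adjusted p of up to 0.0605, and without the macrophage-rich placebo library 1 and corticosterone library 5 (-2.27, adjusted p = 0.0710, with no member called). Macrophage markers summed to 111 to 4726 CPM in the corticosterone group and 146 to 533 CPM with placebo, and 0 of 12 passed. Without the 3 libraries rich in muscle markers, placebo library 3 among them, Acaa1b also missed the threshold (-1.74, adjusted p = 0.0591) and Ehhadh fell instead (-1.64, adjusted p = 0.0259). The median over the members was 0.11, with 18 positive and 15 negative, and 0.01 over all genes. It depended on which placebo libraries were kept. Brown markers summed to 36536 CPM in placebo library 3 against 9586 and 5743 CPM in libraries 1 and 2. White adipocyte markers summed to 3536 CPM in placebo library 3, to 29253 and 17421 CPM in libraries 1 and 2, and to 2315 to 4538 CPM with corticosterone. The part of these cell types in the result was not tested. Without placebo library 3 the median was 0.57, without placebo library 2 it was -0.01, and without the muscle-rich libraries it was 0.58.

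Hadhb had the next smallest p-value in iBAT. It read 515, 528 and 612 CPM with placebo and 986, 1351, 1013, 981 and 981 CPM with corticosterone at 22 °C (0.95 ± 0.25 (SE), adjusted p = 0.0824), without overlap and without passing. Placebo libraries 1 and 2, rich in white adipocyte markers, were the lowest for Hadhb. Hadha read 698, 628 and 1309 CPM against 1801, 2017, 1181, 840.0 and 1102 CPM, with overlap. Acadl read 1513, 1127 and 4236 CPM against 2620.1, 2758, 2591, 1413 and 2369 CPM, and Acads 127, 183 and 448 CPM against 449.7, 652, 412, 225 and 194 CPM. Placebo library 3 was the highest placebo library in both. Acsl1 read 1906, 1668 and 1499 CPM against 1014, 2282, 849, 1014 and 938 CPM (-0.47, adjusted p = 0.609). Of the 5 corticosterone libraries 4 were below the placebo range for Acsl1 and library 2 was above it.

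Decr1 in iBAT at 22 °C read 482, 503 and 717 CPM with placebo and 753, 754, 933, 638 and 749 CPM with corticosterone. Eci1 read 802, 698 and 2198 CPM against 1113, 1001, 1668, 747 and 1010.3 CPM, and Pex11a 81.3, 99.9 and 114 CPM against 71.0, 87.2, 83.3, 56.7 and 70.3 CPM. The groups overlapped in each. Cpt1a was low throughout, at 12.6, 10.5 and 2.82 CPM against 1.44, 5.09, 2.93, 9.17 and 12.3 CPM. Cpt1b was at 5.45, 2.78 and 11.5 CPM against 17.4, 31.6, 9.96, 6.24 and 10.1 CPM, with the limit of shared exons given above.

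At 13 °C 0 of 33 members changed with corticosterone in iBAT, against 0.728% of all genes, with 3 at an unadjusted p under 0.05. DESeq2 called 1 and limma none. The median was 0.01, and -0.11 without the muscle-rich libraries. Acaa1b (-1.39, adjusted p = 0.0991), Slc22a5 (-0.94, adjusted p = 0.229), Slc25a20 (-0.56, adjusted p = 0.315) and Ehhadh (-0.63, adjusted p = 0.515) had the smallest p-values. Hadha read 974, 1153, 1528, 1119 and 1101 CPM with placebo and 1201, 745, 1161, 1262 and 1767 CPM with corticosterone, and Hadhb 998, 1328, 1223, 965 and 1190.1 CPM against 1410.2, 908, 1348, 1262 and 1642 CPM. Acadl read 1450.0, 2124, 1746, 1949.8 and 2108 CPM against 2062, 1392, 2802, 2730.4 and 1532 CPM, and Acads 149.9, 206, 315, 276 and 318 CPM against 274, 185, 223, 284 and 472 CPM. These 4 genes had overlapping groups. Acsl1 read 1408, 1409, 1809, 1880.3 and 1298 CPM against 1032, 1011, 1184, 856 and 1378 CPM, and Decr1 679.7, 832, 947, 710.5 and 791 CPM against 931, 654, 917, 986 and 1177 CPM. Eci1 read 770.4, 1155, 1470.2, 949 and 1356 CPM against 620.2, 599, 1255, 1442 and 1358 CPM. Here too the groups overlapped.

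Pex11a in iBAT at 13 °C read 86.8, 63.3, 64.9, 70.4 and 74.8 CPM with placebo and 90.5, 84.8, 87.7, 104 and 77.2 CPM with corticosterone. Cpt1a read 7.26, 5.68, 5.17, 4.42 and 3.94 CPM against 9.29, 4.30, 4.53, 2.09 and 2.41 CPM, and Cpt1b 4.09, 3.66, 12.6, 10.6 and 3.23 CPM against 2.89, 1.79, 5.496, 5.76 and 7.75 CPM. Cpt1a stayed under 10 CPM in these 10 libraries.

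The cold comparisons of iBAT gave no call. With placebo 0 of 33 passed, against 0.0175% of all genes, with 6 at an unadjusted p under 0.05, all in edgeR. DESeq2 called 3 and limma with library weights 9, all higher at 13 °C. The share of all genes that those 2 tools called is not given here, so their counts cannot be set against the 0.0175%. Slc25a20 was at 898 ± 134 against 425 ± 113 CPM (1.08 ± 0.25 (SE), adjusted p = 0.223) and Hadhb at 1141 ± 155 against 552 ± 52.5 CPM (1.05 ± 0.25 (SE), adjusted p = 0.226), with no overlap in either gene. Groups did not overlap for 4 of 33 members and for 6.96% of all genes. Acadm (0.89, adjusted p = 0.298) and Etfdh, which passes the electrons on to ubiquinone (0.81, adjusted p = 0.400), followed. The median over the members was 0.18 with placebo, and 0.67 without the muscle-rich libraries, again with no call. Under corticosterone 0 of 33 passed, against 0.00583% of all genes, and 6 members had an unadjusted p under 0.05. DESeq2 called 2 and limma none. Mlycd was at 87.8 against 36.5 CPM (1.27 ± 0.27 (SE), adjusted p = 0.120), and Cpt1b (adjusted p = 0.166), Hsd17b10 (0.69, adjusted p = 0.233) and Etfb (0.60, adjusted p = 0.291) came next. The interaction had 0 calls among members and 0 among all genes (0%), with 5 members at an unadjusted p under 0.05 and none by DESeq2 or limma, and its median went from -0.15 to -0.69 without the muscle-rich libraries.

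The members also differed between depots. Levels set side by side across depots use 1 common scale of all 55 libraries. In placebo animals at 22 °C, 13 of 33 members were higher in iBAT than in scWAT and 0 were lower, against 2.31% and 0.503% of 22245 genes, with a median difference of 1.14 (log2). Against goWAT 23 were higher in iBAT and 0 lower, against 8.35% and 6.40% of all genes, with a median of 1.38. goWAT was lower than scWAT in 3 and higher in 0, against 2.30% and 2.03%, with a median of -0.25.

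Acaa2, the thiolase of the mitochondrial matrix, was at 2286 ± 1579 against 314 ± 112 CPM in iBAT against scWAT at 22 °C (2.87 ± 0.46 (SE), adjusted p = 0.000153), and Acsl5 at 251 against 35.8 CPM (2.81 ± 0.41 (SE), adjusted p = 4.11e-05). Acadl was at 2811 against 699 CPM (2.01, adjusted p = 0.00370). Acot11 and Acadvl had log2 differences of 3.38 and 2.74, with adjusted p-values of 0.128 and 0.0678, and Cpt1b did not pass either (adjusted p = 0.0692). The fitted difference of Cpt1b is not given in the comparisons of depots, because placebo libraries held 1 to 22 counts of it in scWAT at 22 °C and 0 to 5 counts in goWAT at 22 °C and 4 to 14 at 13 °C. The smallest differences were those of Pex11a (0.13), Hsd17b4 (0.34) and Acsl1 (-0.46). Against goWAT the largest apart from Cpt1b (adjusted p = 0.00349) were Acot11 (7.08, adjusted p = 0.000458), Acaa2 (3.58, adjusted p = 6.08e-07), Acsl5 (2.80, adjusted p = 3.38e-06), Hadhb (2.76, adjusted p = 1.33e-05) and Acot13 (2.73, adjusted p = 4.81e-08). Acaa1b (-0.00), Pex11a (0.07) and Hsd17b4 (0.12) differed least.

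The members lower in goWAT than in scWAT at 22 °C were Etfb (-1.42, adjusted p = 0.00161), Acot13 (-1.23, adjusted p = 0.00621) and Hadhb (-1.47, adjusted p = 0.0290). Acot11 (-3.71, adjusted p = 0.0695) and Acaa1b (1.14, adjusted p = 0.191) had large differences that did not pass, and Cpt1b (adjusted p = 0.499) did not pass either. Acsl5 (0.01), Crat (0.04) and Pex11a (0.06) differed least. The contrast of iBAT with scWAT at 22 °C rested on few placebo libraries. Its count was 4 without iBAT library 3 and 7 without scWAT library 1 or 3. A further fit left out 14 libraries, 12 rich in markers of another cell type and 2 of goWAT with the fewest counts of that depot. At 22 °C it kept only placebo library 2 of iBAT, whose brown markers summed to 5743 CPM and white adipocyte markers to 17421 CPM. Its counts for iBAT at 22 °C are therefore not given.

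The same contrasts at 13 °C gave more calls, and whether they differ between the temperatures was not tested. In iBAT 16 members were higher and 2 lower than in scWAT, against 7.23% and 10.7% of all genes, with a median of 0.98. Against goWAT 27 were higher and 1 lower, against 14.9% and 21.2%, with a median of 1.98. goWAT was lower than scWAT in 18 and higher in 0, against 3.24% and 2.34%, with a median of -1.05. The last count ran from 11, without goWAT placebo library 4, to 18 when 1 library was left out.

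Acsl5 was at 442 against 57.0 CPM in iBAT against scWAT at 13 °C (2.96 ± 0.36 (SE), adjusted p = 9.26e-08). Acaa2 (2.17), Etfdh (1.97), Hadhb (1.93) and Slc25a20 (1.88) also passed, and Acot11 (2.51, adjusted p = 0.0774) did not. Cpt1a and Acsl1 were the 2 genes lower in iBAT: Cpt1a at 6.45 ± 1.61 against 16.0 ± 2.34 CPM (-1.31 ± 0.38 (SE), adjusted p = 0.0116) and Acsl1 at 1897 ± 317 against 3361 ± 655 CPM (-0.82 ± 0.29 (SE), adjusted p = 0.0378). Crat (0.04), Hsd17b4 (-0.20) and Pex11a (-0.33) differed least. Against goWAT, Acot11 (8.08), Acaa2 (3.84), Hadhb (3.84), Acsl5 (3.42) and Acadvl (3.27) led, and all passed, as did Cpt1b. Cpt1a was lower in iBAT there too (6.45 ± 1.61 against 32.8 ± 8.73 CPM, -2.34 ± 0.39 (SE), adjusted p = 4.69e-06). The peroxisomal Pex11a (0.03), Hsd17b4 (0.08) and Acaa1a (-0.19) differed least.

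goWAT against scWAT at 13 °C had its largest differences in Acot11 (-5.57, adjusted p = 0.00293), Acadl (307 against 1332 CPM, -2.12 ± 0.37 (SE), adjusted p = 0.000182), Hadhb (-1.90, adjusted p = 0.000864), Acaa2 (-1.68, adjusted p = 0.00417) and Hadha (-1.56, adjusted p = 0.0104), and Cpt1b passed as lower (adjusted p = 0.0363). Slc22a5 (-0.18), Hsd17b10 (-0.19) and Eci2 (-0.25) differed least. Of the peroxisomal members, 0 of 5 were called for iBAT against scWAT at either temperature. The shares of all genes called there were 2.81% at 22 °C and 18% at 13 °C. For iBAT against goWAT 1 of 5, Ehhadh, was called at each temperature, against 14.7% and 36.1% of all genes. With 5 genes these counts cannot show whether the peroxisomal members differ from all genes. Of 10 brown adipocyte markers 4 were higher in iBAT than in scWAT at 22 °C and 7 at 13 °C, and 10 were higher than in goWAT at both, and in goWAT against scWAT 5 were lower at 22 °C and 9 at 13 °C. Their part in the depot differences of the members was not tested.

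**Figure D4:**
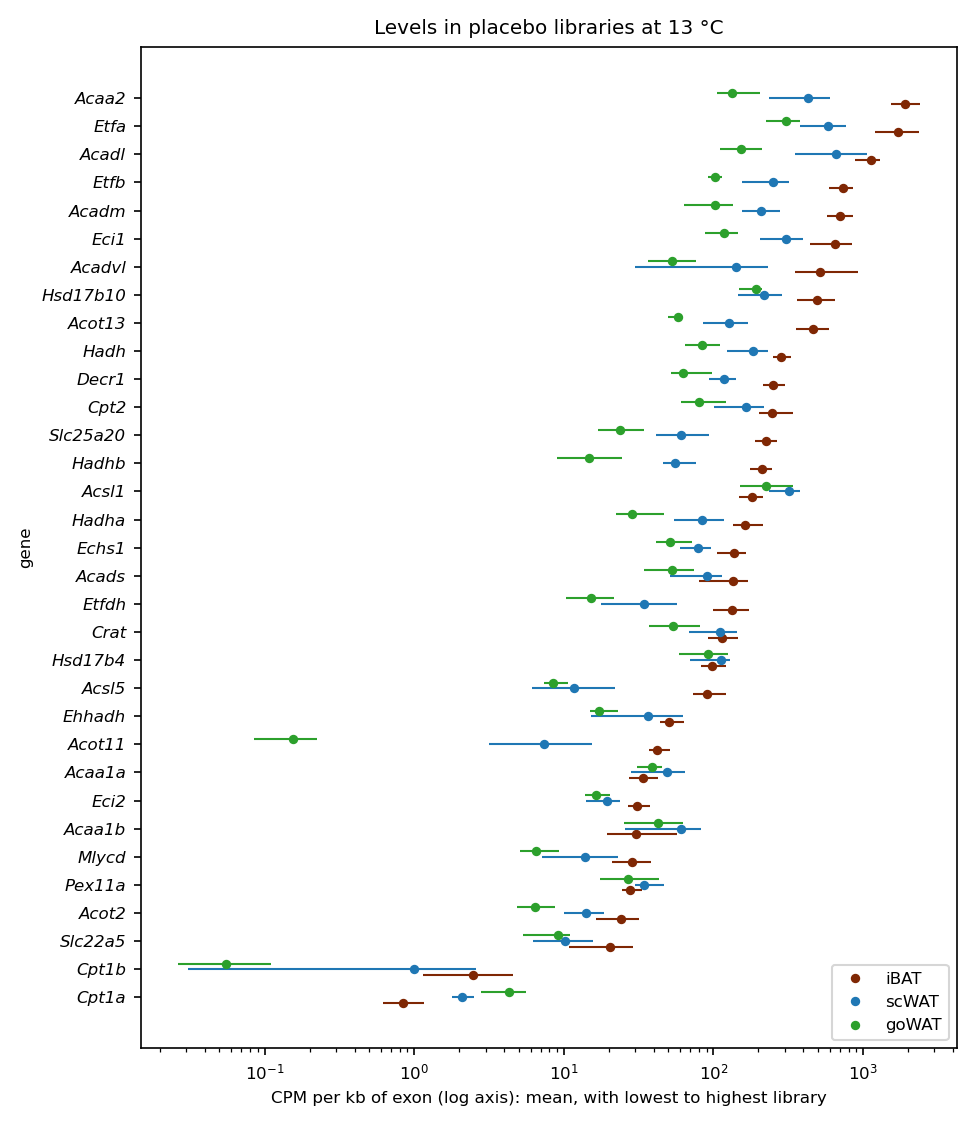
Level of each of the 33 genes per kilobase of exon (CPM per kb, log axis) in placebo libraries at 13 °C of the 3 depots, as the mean (point) with the lowest and highest library (bar). Acaa2 is at 1920.5 CPM per kb in iBAT, 428 in scWAT and 134 in goWAT, and Cpt1a is lowest in iBAT.

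Per kilobase of exon, the order of levels differed by depot. In placebo iBAT at 22 °C the highest means were Acaa2 at 1508 ± 1042 CPM per kb, Acadl at 1402 ± 1041 and Etfa, the other flavoprotein subunit, at 1165 ± 602. In scWAT Etfa led at 467 ± 118 CPM per kb, followed by Acadl at 349 ± 106, Etfb at 305 ± 71.4 and Acsl1 at 272 ± 74.8. goWAT had Etfa at 339 ± 112, Acsl1 at 251 ± 91.3 and Acadl at 224 ± 49.3 CPM per kb. The library ranges of neighbours overlapped in all 3 lists.

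Cpt1a was among the lowest members in every depot. Its mean level per kilobase, in the order of groups given at the start, was 1.38, 0.990, 0.844 and 0.727 CPM per kb in iBAT. In scWAT it was 2.45, 5.15, 2.09 and 2.75, and in goWAT 3.24, 3.96, 4.29 and 3.49 CPM per kb. The median log2 ratio of Cpt1b to Cpt1a per kilobase, with 0.5 added to both counts, was -0.02, 2.94, 0.90 and 1.46 in iBAT in the same order, and single libraries ran from -0.73 to 4.75. In the white depots Cpt1b often had too few counts for a ratio. It had 1 to 22, 0 to 4, 1 to 227 and 1 to 58 counts per library in scWAT, and 0 to 5, 0 to 62, 4 to 14 and 1 to 267 in goWAT, against 131 to 3315 counts of Cpt1a over both. As far as the counts assigned to Cpt1b go, it lay below Cpt1a per kilobase in every white fat library except placebo library 4 of scWAT (log2 ratio 0.18) and corticosterone library 1 of goWAT (0.27), both at 13 °C.

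The summed level of the 33 genes, an abundance in CPM in which the highest members weigh most, was 10941 ± 2280.4 CPM (SD) in placebo scWAT at 22 °C and 5705 ± 1683 CPM with corticosterone, and 15047 ± 3265 and 9496 ± 2365 CPM at 13 °C. The scWAT ranges at 22 °C, 8249 to 13188 and 4044 to 8293 CPM, overlapped by a narrow margin. In goWAT the 4 groups were at 8984 ± 599.7, 5716 ± 2220.2, 7846 ± 1894 and 7855 ± 3128 CPM, and in iBAT at 23816 ± 9541, 29142 ± 4595, 29421 ± 3968 and 30478 ± 7825 CPM. Every iBAT group mean was above every white fat group mean.

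**Figure D5:**
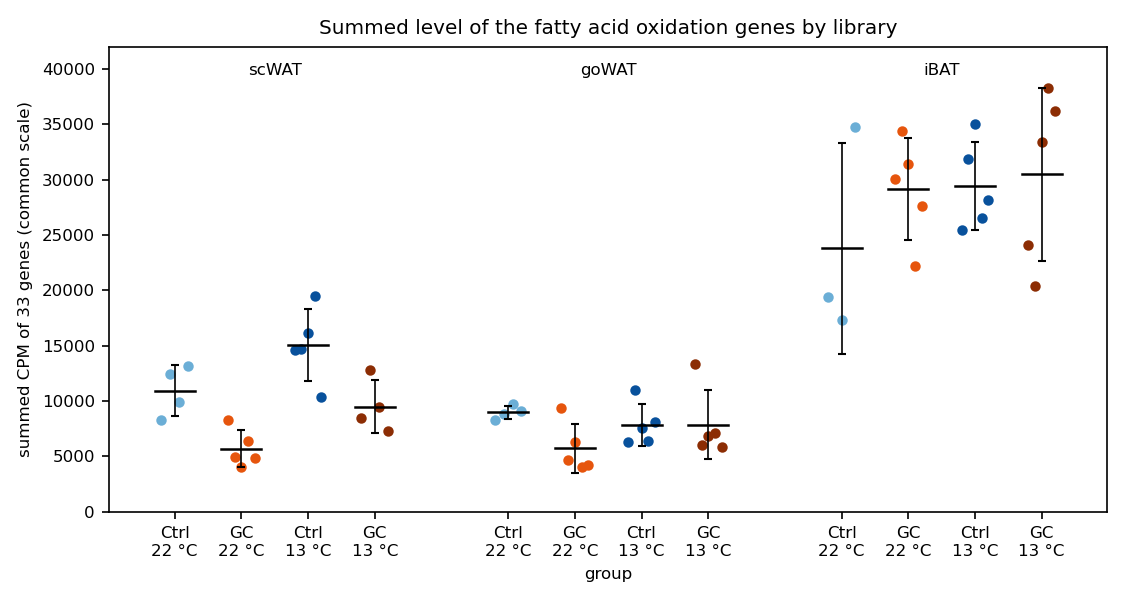
Summed CPM of the 33 genes in each library (points) of the 12 groups, on the common scale, with the mean and SD. iBAT groups lie at the top, and the lowest group means are those of corticosterone at 22 °C in scWAT (5705 CPM) and goWAT (5716 CPM).

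Whether the corticosterone effect differed among the 3 depots was tested for all at once, with the placebo groups as reference in each. At 22 °C 0 members passed, against 0.742% of all genes, with 13 at an unadjusted p under 0.05, all in edgeR. DESeq2 called 5 and limma 13, without a share of all genes for those tools given here. The smallest adjusted p-values were those of Hadhb (0.0592), Decr1 (0.0623) and Hadha (0.0843). At 13 °C Acadl (adjusted p = 0.0481) and Acot11 (adjusted p = 0.0492) passed, against 0.234% of all genes. The log2 fold changes of Acadl at 13 °C were -1.86 in scWAT, 0.44 in goWAT and 0.17 in iBAT, and those of Acot11 -3.02, 4.63 and 0.21. The goWAT value of Acot11 rested on corticosterone library 1, the one rich in brown markers, at 122 CPM against 0.550 to 1.93 CPM in the other 4, and without it the log2 fold change was 0.37, adjusted p = 0.908. That library was also the highest for Acadl, at 1032 CPM with the next at 408 CPM. Neither call was firm, since 19 of 29 fits without 1 library had no member.

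Further genes of the pathway changed in scWAT. Of 47 other oxidation genes tested, 11 fell with corticosterone at 22 °C, against 3.45% of all genes, with a median of -0.66. Acacb, whose product malonyl-CoA inhibits carnitine palmitoyltransferase 1, was at 89.1 against 356 CPM (-1.998 ± 0.33 (SE), adjusted p = 0.000744). Slc27a1, a fatty acid transport protein, was at 356 against 1206 CPM in scWAT (-1.76, adjusted p = 0.00180) and at 444 against 1712 CPM in goWAT (-1.95, adjusted p = 0.0113), and Pecr fell as well (-1.38, adjusted p = 0.00294).

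Of 23 regulators tested in scWAT, 1 fell at 22 °C, the nuclear receptor Esrrg (0.106 against 1.22 CPM, -3.54, adjusted p = 0.0117), a share near the 3.45% of all genes, and the median was -0.19. At 13 °C 2 of 23 fell with corticosterone, against 1.14% of all genes, Ppara, the receptor that drives many oxidation genes (4.26 against 19.6 CPM, -2.20 ± 0.46 (SE), adjusted p = 0.00939), and Lpin1 (-1.31, adjusted p = 0.0237). Of 47 other oxidation genes 3 fell at 13 °C, Acacb, Nudt7 and Slc27a2. Cold under corticosterone raised 9 of them and 3 regulators, against 3.02% of all genes, Rxra (0.67, adjusted p = 0.0318), Esrrg (2.91, adjusted p = 0.0347) and Nrf1 (0.88, adjusted p = 0.0423), and lowered none. Slc27a1 (1.79, adjusted p = 0.0129) was among the 9.

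The 17 genes of the citric acid cycle, which takes up the acetyl-CoA, were all negative with corticosterone in scWAT at both temperatures. At 22 °C 2 fell, against 3.45% of all genes, Suclg2 (31.5 against 71.8 CPM, -1.19, adjusted p = 0.00158) and Sdha (-1.08, adjusted p = 0.0201), with a median of -0.75. At 13 °C 5 fell, against 1.14%, Idh3b (-1.22, adjusted p = 0.0170), Sdhc (-1.03) and Sdhd (-1.11) among them, with a median of -0.89. In goWAT at 22 °C Suclg2 fell (-1.04, adjusted p = 0.0115), with 2 other oxidation genes, Slc27a1 and Pecr, and 1 regulator of 23, Prkaa1 (-0.89, adjusted p = 0.0113), against 2.85% of all genes. In iBAT at 22 °C all 17 were positive, none passed and the median was 0.53. Placebo libraries 1 and 2 of that comparison were rich in white adipocyte markers, as given above. The regulator Foxo1 fell in iBAT at 22 °C (-1.64, adjusted p = 0.0203) and at 13 °C (-1.81, adjusted p = 0.00353), as 1 of 24 regulators, against 0.332% and 0.408% of all genes. Each of these counts uses the same libraries as the members' and carries the same marker changes.

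RefSeq start windows of 300 bases (250 before and 50 after the start, GRCm38.p6) were found for 27 of 33 members, as 29 windows. They were searched on both strands for 5 motifs, the second of which holds 1 AGGNCA of the first. The paired site of PPAR and its partner (AGGNCA repeated after 1 base), the ERR element (TCAAGGTCA) and the glucocorticoid response element (GNACA and TGTNC, 3 bases apart) each matched 0 of the 29, against 0.381%, 0.423% and 0.475% of 32851 windows of all genes. The CCAAT box (CCAAT) was present in 15 of the 29 windows, each of a different member, against 37.4% of all windows. Cpt1a and Acsl1 were among these members and Hadha and Hadhb were not. The E-box CACGTG was found in 1 of the 29 windows, for Acot11, against 7.15% of all windows. The first 3 motifs are so rare in all windows that 0 of 29 cannot tell the members from other genes. These are matches of letters in a short window and say nothing about sites elsewhere.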

How the data were processed

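RNA of microdissected fat was sequenced in 55 libraries. The submitters' processing notes name FastQC, GSNAP 2018-07-04, featureCounts 1.6.3 and the build mm10. The counts per gene were analysed as deposited by the authors, 1 table per depot, under names of GENCODE release M21 (31894 of 31933 genes had one). The annotation release used for counting is not given in the sources used here.

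Counts were scaled by trimmed means (TMM) and tested with the quasi-likelihood test of edgeR 4.0.16 in R 4.3.3, with 1 fit of 4 groups per depot and 1 fit of all 12 groups for depots. The filter kept genes by filterByExpr, with a minimum count of 10 and a minimum total of 15. P-values were adjusted by Benjamini and Hochberg over all genes of a fit, with a threshold of 0.05. Shares of all genes are those of the edgeR test on all libraries of a fit. Member counts of DESeq2, of limma and of the fits without 1 library have no such share beside them. The standard error was the log2 fold change divided by the root of F. Libraries of a group varied with a biological coefficient of 50.5% (iBAT), 50.0% (goWAT), 47.8% (scWAT) and 53.0% (joint fit), so small differences were not detectable with 3 to 5 libraries a group. The script was tested on simulated data.

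Members and lists were chosen with earlier results of these data known. Members were given by library if they were among the 8 with the smallest adjusted p in any comparison within a depot, with Cpt1a, Cpt1b and Acsl1 added. In a comparison with calls all called members were named, and in one without calls up to 4 by p, with up to 4 called genes of each further list. Results of some genes of those lists are not reported here. For depots, the 6 largest and the 3 smallest differences were named. Alternatives were DESeq2 1.42.0, limma 3.58.1 with library weights, other scaling, no filter, a replicate block, fits of only the groups compared, and fits without libraries, 159 fits in all.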

Additional observations from a re-analysis of the deposited data

Results flagged for a closer look

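The highest or lowest library of a group stood apart from the rest, by the gap to its nearest neighbour relative to the range of the group (Dixon's test), in 19 of 121 groups of 4 to 5 libraries, over 11 measures. Chance flags about 1 in 20 groups, and the measures share libraries. Values are in CPM.

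In goWAT with corticosterone at 22 °C, library 1 was the highest for Hadha (539, next 162), Hadhb (244, next 104), Eci1 (337, next 227) and Cpt1b (3.52, next 0.152). Its counterpart at 13 °C, library 1, was the highest for Hadha (1034, next 235), Acadl (1032, next 408), Hadhb (405, next 101), Decr1 (560.0, next 286) and Cpt1b (8.36, next 0.110). The summed level of the 33 genes was 13372 in that library against 7106 in the next. Both libraries were the richest in brown adipocyte markers of their groups. Placebo library 2 of goWAT at 13 °C was the highest for Hadha (436, next 242) and Decr1 (409, next 243).

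In scWAT, Hadhb was highest in corticosterone library 4 at 22 °C (160.3, next 112) and in placebo library 4 at 13 °C (562, next 388). Pex11a was highest in placebo library 2 at 13 °C (168, next 116), and Cpt1b in corticosterone library 3 at 22 °C (0.116, next 0.0234, which is 4 counts against 1). In iBAT with corticosterone at 22 °C, library 2 was the highest for Acsl1 (2282, next 1014) and Hadhb (1351, next 1013), and library 4 the lowest for Acadl (1413, next 2369).

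The corticosterone effect at 13 °C differed among the 3 depots for Acadl (adjusted p = 0.0481) and Acot11 (adjusted p = 0.0492) in edgeR. The difference itself was tested, and 2 of 33 members passed, against 0.234% of all genes. Neither call was firm, since no member passed in 19 of 29 fits that each left out a single library. The goWAT value of Acot11 rested on a single library, as given above.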

How the results depend on the processing

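No single-gene value followed through the alternatives changed sign, but the median over the members did where it lay near 0. It went from 0.27 to -0.04 for corticosterone in goWAT at 13 °C without the brown-marker-rich libraries, from -0.14 to 0.00 for cold with placebo there without those holding epididymal transcripts, and from 0.18 to -0.01 and -0.11 for the scWAT interaction without the macrophage-rich or brown-marker-rich libraries. In iBAT it went from 0.02 to -0.03 for cold under corticosterone with no filter and to -0.05 without the macrophage-rich libraries. For corticosterone at 13 °C there it went from 0.01 to between -0.00 and -0.11 with DESeq2, its scaling, the replicate block, and without the macrophage-rich or muscle-rich libraries. With 1 library left out it spanned 0 as well for these, except cold with placebo in goWAT, and for corticosterone in iBAT at 22 °C (-0.01 to 0.57). Counted over every gene, comparison and alternative fit, a call was lost in 321 cases and gained in 23. The same gene and comparison can count more than once. DESeq2 gave 3 members for corticosterone in iBAT at 22 °C, 1 at 13 °C, 3 and 2 for cold with placebo and corticosterone there, 1 and 1 for corticosterone at 13 °C and the interaction in goWAT, 12 for corticosterone at 13 °C and 12 for cold under corticosterone in scWAT, 5 for goWAT against scWAT at 22 °C and 5 for the depot difference at 22 °C. limma with library weights gave 5 and 9 in iBAT (corticosterone at 22 °C, cold with placebo), 5, 2 and 1 in goWAT (corticosterone at 22 °C and 13 °C, interaction), 15, 1 and 14 in scWAT (corticosterone at 13 °C, cold with placebo and with corticosterone), 7 for goWAT against scWAT at 22 °C, and 13 and 7 for the depot differences at 22 °C and 13 °C. Fitting only the groups compared gave 10, 9 and 2 in scWAT (corticosterone at 22 °C and 13 °C, cold under corticosterone), 1 and 8 for iBAT and goWAT against scWAT at 22 °C, and 1 and 1 for the depot differences. Without the macrophage-rich libraries the counts were 0 for corticosterone in iBAT at 22 °C, and 2 and 0 in scWAT (corticosterone at 22 °C, cold under corticosterone). Without the keratin-rich libraries both scWAT counts (corticosterone at 13 °C, cold under corticosterone) were 0. Without the libraries rich in brown markers they were 13 and 2 in goWAT (corticosterone at 22 °C and 13 °C) and 1 and 2 in scWAT, the scWAT setting having been chosen after seeing the data. Without the 14 libraries the count was 5 for goWAT against scWAT at 22 °C, and 0 for the depot difference at 13 °C, which was 1 with no filter. For iBAT at 22 °C that fit kept 1 placebo library, and its counts are not given. The cause of these shifts was not tested.

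Leaving out 1 library gave 0 to 1 members in iBAT (corticosterone at 22 °C), 2 to 7, 0 to 1, 0 to 2 and 0 to 2 in goWAT (corticosterone at 22 °C and 13 °C, cold under corticosterone, interaction), and 6 to 20, 2 to 6 and 0 to 16 in scWAT (corticosterone at 22 °C and 13 °C, cold under corticosterone). For depots it gave 4 to 13, 16 to 22 and 2 to 3 at 22 °C (iBAT against scWAT, iBAT against goWAT, goWAT against scWAT), 17 to 18 and 11 to 18 at 13 °C (iBAT and goWAT against scWAT), and 0 to 4 and 0 to 2 for the depot differences. With plain library totals the summed level was 23951 in iBAT with corticosterone at 22 °C, 24280 in iBAT with placebo at 13 °C and 9946 in goWAT with placebo at 22 °C, and with a pseudocount of 5 in place of 0.5 the mean log2 ratio of Cpt1b to Cpt1a with corticosterone at 22 °C went from -8.97 to -6.65 in scWAT and from -7.17 to -4.97 in goWAT.

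The libraries of different groups share replicate numbers but no stated animal. Same-numbered libraries deviated together (every correlation over 0.1) in 1 of 18 pairs of groups within a depot and in 0 of 12 across depots, and 13 of 78 libraries within depots and 19 of 55 across depots correlated best with their own number, so the numbers were not taken to pair the libraries. Across depots the share was highest for goWAT and scWAT with corticosterone at 22 °C, where 4 of 5 did and 4 of 5 pairs were over 0.1. For iBAT and goWAT there 3 of 5 did, with 4 of 5 pairs over 0.1, and for iBAT and scWAT 2 of 5 did. No share expected by chance was computed, so these values do not settle whether libraries of different depots share animals. A fit with the replicate number as a block gave 12 members in place of 18 for corticosterone in scWAT at 22 °C, all lower, with Cpt1a at an adjusted p of 0.0903, 5 in place of 7 for cold under corticosterone there, and 1 for the depot difference at 13 °C. It moved the calls over all genes from 1317 to 910 for corticosterone in scWAT at 22 °C and from 1555 to 494 for cold under corticosterone.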
